A study of Mus musculus with 3 samples.

Results

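Kit and Flt3, a pair of cytokine receptor genes, were followed with CD117, the surface protein that Kit encodes, in mouse bone marrow progenitors profiled by CITE-seq, a method that counts transcripts and DNA-tagged antibodies in the same cells. Kit (ENSMUSG00000005672) and Flt3 (ENSMUSG00000042817) are 2 of 28692 gene IDs in the deposited count table, and CD117 is 1 of the 4 antibodies measured. They were taken by symbol and by antibody name, without a threshold on a measured value. The cells came from wild-type C57BL/6 mice and carry the label modified GMP, GMP being the usual short form of granulocyte-monocyte progenitor. There was 1 female and 1 male mRNA library, no treatment, and 1 antibody library in which both sexes were pooled. Age and the number of mice behind each library were not given in the sources used here. Hindlimb marrow was enriched with CD117 microbeads and sorted before loading, so cells with little CD117 were selected against, and no ungated marrow was there to set the levels against. The sorting gate was not given.

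KIT and FLT3 are class III receptor tyrosine kinases. KIT binds stem cell factor, the product of Kitl, and is carried by blood stem cells and early progenitors, by mast cells and by early erythroid cells, and it is lost as granulocytes mature. FLT3 binds the FLT3 ligand and marks multipotent and lymphoid-primed progenitors, and dendritic cells depend on it. Both receptors dimerise on binding their ligand and signal through Src family kinases, PI3 kinase, RAS and STAT5, and ubiquitin ligases of the CBL family and phosphatases turn the signal down. KIT bound to its ligand is taken into the cell and degraded, so the surface amount need not follow the transcript.

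Both genes lie on mouse chromosome 5 (GRCm38.p6, the same build as the mm10 named in the submitters' processing notes). Kit spans chr5:75574987-75656722 on the plus strand and Flt3 spans chr5:147330741-147400489 on the minus strand. Their promoter windows are shown because GATA, E-box, RUNX and ETS factors are among the reported regulators of Kit or Flt3. Of the genes of these factors, Gata2 and the ETS factor gene Spi1 are described further on. Each window runs from 250 bases before to 50 bases after the transcription start in RefSeq, for Kit chr5:75574737-75575036 and for Flt3 chr5:147400440-147400739, and is written 5′ to 3′ on the strand of the gene. Capitals mark matches, on either strand, to the words searched, which were GATAA for GATA factors, CANNTG for E-box factors, TGTGGT for RUNX factors and GGAAG for ETS factors. The TATA box was searched as TATAAA.
Kit: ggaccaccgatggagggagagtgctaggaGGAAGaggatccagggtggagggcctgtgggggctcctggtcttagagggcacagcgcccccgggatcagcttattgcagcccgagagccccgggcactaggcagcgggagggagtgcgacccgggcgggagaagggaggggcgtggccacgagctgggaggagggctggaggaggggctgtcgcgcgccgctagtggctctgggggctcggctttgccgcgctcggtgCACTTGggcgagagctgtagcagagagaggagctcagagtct
Flt3: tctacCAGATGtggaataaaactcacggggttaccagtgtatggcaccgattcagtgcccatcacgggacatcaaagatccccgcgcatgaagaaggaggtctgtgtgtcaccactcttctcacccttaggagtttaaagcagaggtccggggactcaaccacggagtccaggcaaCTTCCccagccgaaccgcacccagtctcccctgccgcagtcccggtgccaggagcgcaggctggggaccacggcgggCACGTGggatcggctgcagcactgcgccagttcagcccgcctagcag
The Kit window had an ETS match starting at position -221 and an E-box match at 9, counted from 1 at the start site with no position 0. The Flt3 window had an ETS match at -74 and E-box matches at -245 and 4. Neither window held the GATA, the RUNX or the TATA word. Among 27025 promoter windows of this length, 72.1% held the E-box word, 71.1% the ETS word, 25.8% the GATA word, 16.9% the RUNX word and 14.2% the TATA word, so the matches that were found are common ones. G and C made up 69% of the Kit window and 61% of the Flt3 window, against a median of 52.7% over all windows. Motif matches overlapped nowhere in these windows, and they describe letters and not binding.

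The female library held 4336 cells and the male library 6796, with 91448433 and 124967351 UMIs (unique molecular identifiers, the counted transcript molecules). The median cell held 21202 and 18687 UMIs. Kit had 3183 UMIs in female and 3968 in male cells, and Flt3 had 775 and 701. The authors named 17 clusters, and these names are used as deposited because what they abbreviate was not given. Stem and early progenitor markers were highest in HSCP-1 (summed CPM 2052 and 1679, female and male) and HSCP-2 (1933 and 2064), where CPM (counts per 1e+06) is relative to all UMIs of the cluster. Megakaryocyte markers led in Meg (6106 and 4161), erythroid markers in Eryth (2766 and 2647) and dendritic markers in DC (56134 and 44274). Granule genes of later neutrophils stood at 46298 and 47749 CPM in Myelo-1 against 2082 and 1326 in Gran-1, so the Myelo clusters are later neutrophil stages by these genes. The number of cells ran from 24 in HSCP-1 to 2373 in Gran-1. A set of 45 cell barcodes occurred in both libraries, and in all 45 the values of the 4 antibodies were identical in the female and the male cell, although only 3 pairs shared a cluster. Their median CD117 count was 392, against 176 in the other cells. Antibody counts of these barcodes were therefore not divided by sex. Leaving them out moved the median CD117 of a cluster by at most 4.76% and changed no call on Kit or Flt3.

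Kit transcript was highest in HSCP-2, with 96.0 CPM in female and 89.1 CPM in male cells. Eryth followed with 69.0 and 62.7 CPM, and Multi-Lin with 54.5 and 47.0 CPM. These 3 clusters did not overlap each other or any cluster below them over both libraries. The middle of the order was close: IG2 had 43.4 and 42.6 CPM, Meg 39.1 and 46.6, Gran-1 37.6 and 32.9, MDP 34.6 and 30.2, and MP 31.3 and 31.0. Gran-2 had 27.6 and 25.4 CPM, Mono 23.6 and 20.8, and Myelo-1 21.7 and 20.6. At the low end stood Myelo-2 with 14.2 and 12.3 CPM, cMoP with 9.53 and 6.85 CPM, and Myelo-4 with 5.22 CPM and 0. Of the 16 pairs of neighbours in this order, 8 overlapped between libraries. HSCP-1 and Myelo-4 rest on 3 and 1 Kit UMIs (HSCP-1, female and male) and on 1 and 0 (Myelo-4). A count of 0 among the 28 male Myelo-4 cells allows a share of up to 10.7% of cells with a Kit UMI.

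Counted per cell, the order of Kit was another. IG2 then led with 1.12 and 0.948 Kit UMIs per cell, Gran-1 had 1.06 and 0.746, Eryth 0.976 and 0.744, Multi-Lin 0.972 and 0.684, and HSCP-2 0.879 and 0.731. HSCP-2 cells held a median of 8298.5 and 7140.5 UMIs in all, against 27601.5 and 22359 in Gran-1. HSCP-2 thus had more Kit CPM and fewer Kit UMIs per cell than Gran-1 in both libraries. The part of the total UMI count in the order per cell was not tested. Neighbours in the order per cell overlapped in 14 of 16 pairs.

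**Figure D1:**
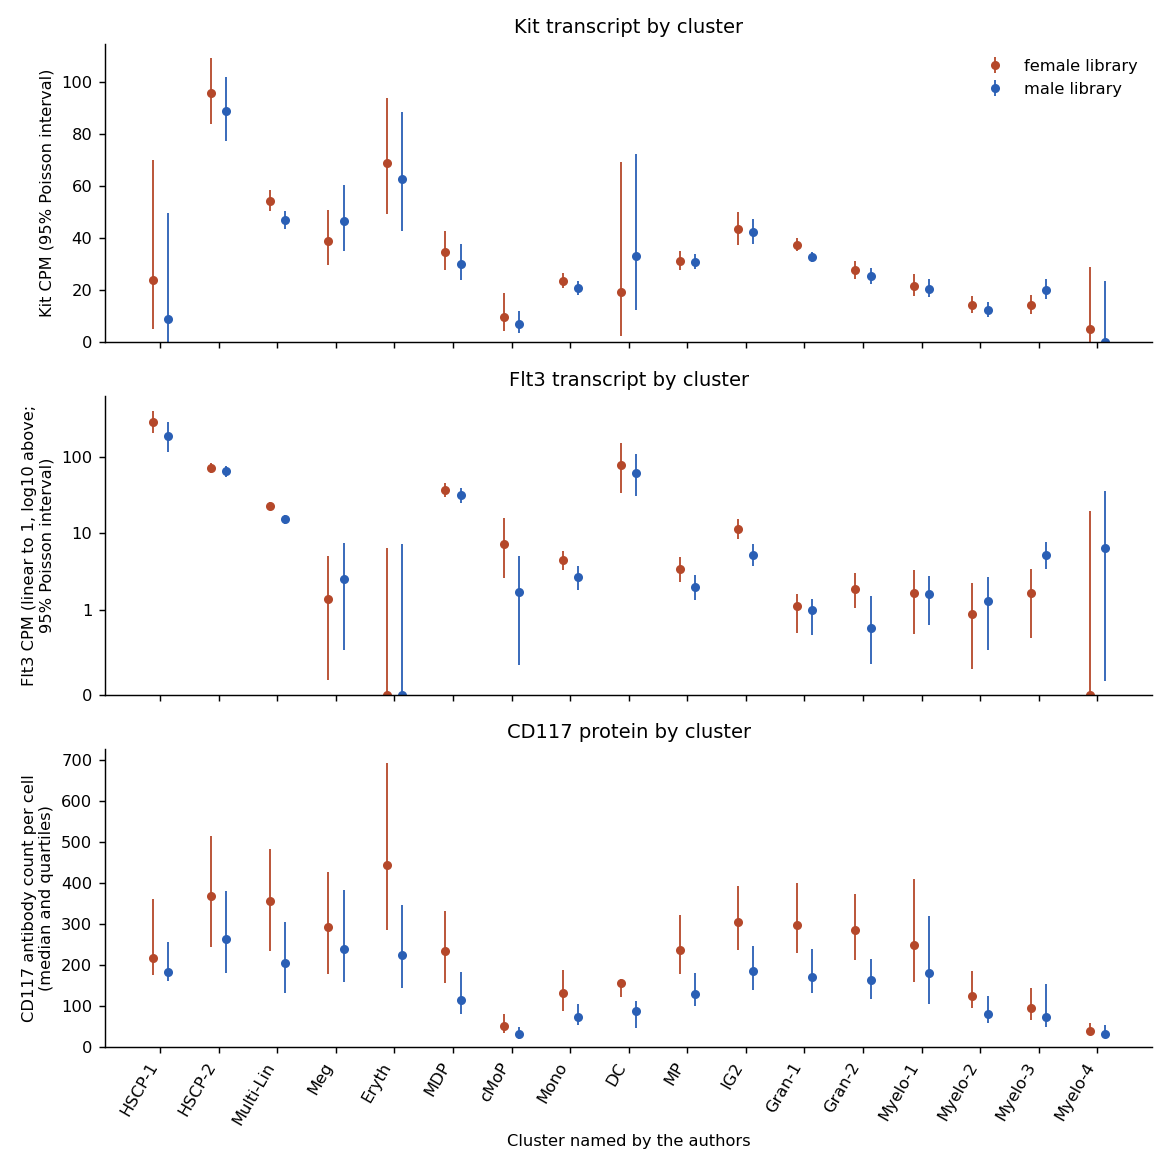
Kit CPM, Flt3 CPM and the median CD117 antibody count in the 17 clusters, in the female and the male library. Bars on CPM are 95% Poisson intervals, which cover counting error only, and bars on CD117 are quartiles over cells. Kit peaks in HSCP-2 at 96.0 and 89.1 CPM, Flt3 in HSCP-1 at 287.4 and 187.6 CPM, and CD117 is lowest in Myelo-4 and cMoP.

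Flt3 had a narrower pattern. HSCP-1 was highest with 287.4 CPM in female and 187.6 CPM in male cells, from 36 UMIs in 14 cells and 21 UMIs in 10 cells. DC had 77.0 and 61.0 CPM, HSCP-2 70.8 and 64.7, MDP 37.0 and 31.0, and Multi-Lin 22.5 and 15.1. DC and HSCP-2 overlapped, and HSCP-1 stood clear of both. IG2 had 11.4 and 5.18 CPM and Mono 4.41 and 2.63 CPM. Flt3 was low in granulocytic clusters, with 1.10 and 1.00 CPM in Gran-1, 1.85 and 0.782 in Gran-2, and 0.946 and 1.30 in Myelo-2. Myelo-3 had 1.65 CPM in female and 5.20 CPM in male cells. No Flt3 UMI was found in the 41 female and 43 male Eryth cells, which allows shares of up to 7.32% and 6.98% of cells. In the whole order of clusters by Flt3, 11 of 16 neighbouring pairs overlapped.

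HSCP-1, the cluster with the most Flt3, combined it with lymphoid markers at 838 and 768 summed CPM, against 21.8 and 36.1 CPM in HSCP-2. Of the 6 lymphoid genes listed, 3 were detected in female and 2 in male HSCP-1 cells, and 2 and 1 in HSCP-2. Dendritic markers in HSCP-1 were 112 CPM in female and 2582 CPM in male cells, so the 24 cells were not alike in the libraries. With every cell thinned at random to 5000 UMIs, 21.7% of female and 27.8% of male HSCP-2 cells had a Flt3 UMI, as did 8.50% and 6.85% of Multi-Lin cells. Gran-1 cells did so in 0.481% (exact Clopper-Pearson 95% interval 0.131 to 1.23) and 0.587% (0.269 to 1.11). In Meg cells, whose type is not known for FLT3, the shares were 1.18% (0.030 to 6.38) and 0% (0 to 4.25) of 85 cells in each library. The Gran-1 shares lay inside these intervals, as did the Mono shares of 3.11% and 1.84%. Intervals this wide cannot decide whether the Gran-1 shares are background. Kit was found at this depth in 32.4% and 35.0% of HSCP-2 cells and in 18.3% and 15.3% of Gran-1 cells.

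CD117 protein was highest in Eryth with median antibody counts of 445 and 224 per cell, in HSCP-2 with 369.5 and 263, and in Multi-Lin with 357 and 206. Gran-1 had 298 and 172, Gran-2 287 and 164, and Myelo-1 250 and 180. Lower levels were seen in MP (237 and 129.5), MDP (235 and 114), Myelo-2 (125 and 82), Mono (131 and 74) and Myelo-3 (95 and 73). The lowest were cMoP with 51 and 31 and Myelo-4 with 40 and 31.5. The female value was the higher in all 17 clusters, so the clusters are compared within a library. Without an isotype control among the 4 antibodies, the part of these counts that is unbound tag was not tested.

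Over the 17 clusters the order of CD117 resembled that of Kit. Pearson's r between Kit CPM and median CD117 was 0.856 in female and 0.783 in male cells, and Spearman's rho was 0.951 and 0.787. With the 4 smallest clusters left out, r was 0.801 and 0.838 over 13 clusters. With Kit UMIs per cell in place of CPM, r over the 17 clusters was 0.831 and 0.708, and the median UMI count of the cells gave 0.175 and 0.0279. These are descriptions, since the clusters of a library share its depth and its antibody staining.

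**Figure D2:**
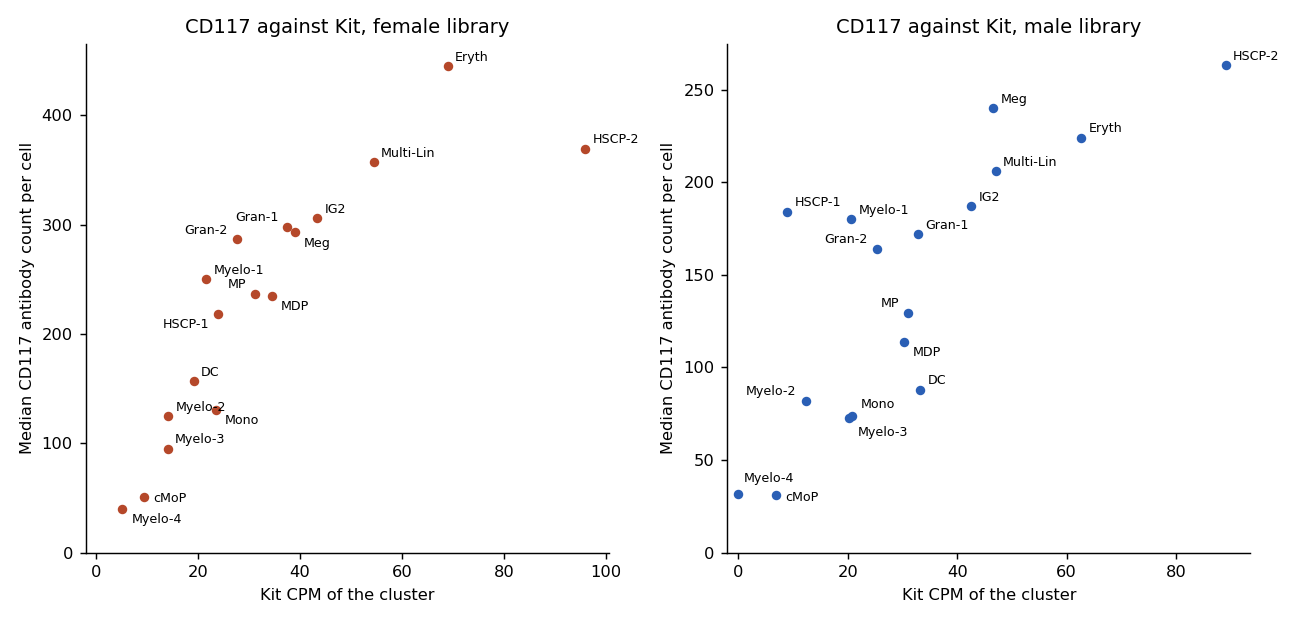
Median CD117 antibody count per cell against Kit CPM for the 17 clusters, in the female library (left) and the male library (right), with 1 point per cluster. HSCP-2 lies farthest right, Myelo-1 lies above Mono at about the same Kit CPM in both libraries, and HSCP-1 rests on 4 Kit UMIs in all.

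Myelo-1 and Mono had nearly the same Kit transcript and differed in the CD117 count. Kit was 21.7 and 20.6 CPM in Myelo-1, against 23.6 and 20.8 CPM in Mono, which gave ratios of 0.921 and 0.994. The Kit UMIs per cell had ratios of 0.912 and 0.990, and median UMIs per cell were 23947.5 and 19945 in Myelo-1, against 24366.5 and 20305 in Mono. The median CD117 count was 1.91-fold (female) and 2.43-fold (male) higher in Myelo-1, and CD117 per RNA UMI was 1.95- and 2.42-fold higher. As a share of the 4 antibody counts the order turned round. The median share of CD117 was 0.700% and 0.846% in Myelo-1, against 1.07% and 0.937% in Mono. The pair was picked from the values, so its difference is a description. Gran-1 and MP, also alike in depth, differed less: CD117 was 1.26- and 1.33-fold and Kit CPM 1.20- and 1.06-fold higher in Gran-1.

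Loss of the protein was set against loss of the transcript along the granulocytic clusters, which is the comparison that the paired measurement of Kit and CD117 allows. In Gran-2, CD117 stood at 96.3% and 95.3% of the Gran-1 level, while Kit CPM stood at 73.6% and 77.1% and Kit UMIs per cell at 63.3% and 65.4%. In Myelo-1, CD117 stood at 83.9% and 104.7% of Gran-1, against 57.7% and 62.7% for Kit CPM and 50.9% and 57.3% for Kit UMIs per cell. The protein thus lay above both measures of its transcript in Gran-2 and Myelo-1 in both libraries. In Myelo-2, CD117 was at 41.9% and 47.7%, Kit CPM at 37.8% and 37.3% and Kit UMIs per cell at 20.7% and 23.7%. In Myelo-3, CD117 was at 31.9% and 42.4%, below Kit CPM (37.5% and 61.5%) and above Kit UMIs per cell (13.2% and 26.6%). Mono showed the other order, with 44.0% and 43.0% of the Gran-1 CD117 level against 62.7% and 63.1% of its Kit CPM and 55.8% and 57.9% of its Kit UMIs per cell.

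**Figure D3:**
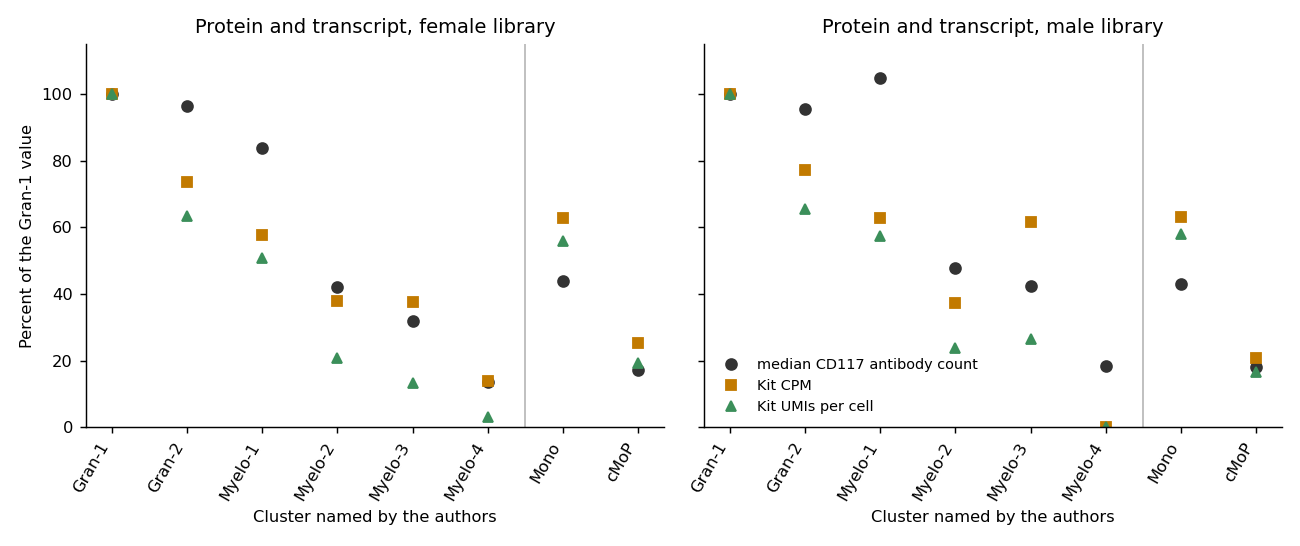
Median CD117 antibody count, Kit CPM and Kit UMIs per cell as a percentage of the Gran-1 value of the same library, in the granulocytic clusters and, right of the line, in Mono and cMoP. In Gran-2 and Myelo-1 the CD117 points lie above both Kit points in both libraries, and in Mono they lie below both.

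Classes were then formed from the cluster names: Gran (Gran-1 and Gran-2), Myelo (Myelo-1 to Myelo-4), early (Multi-Lin, HSCP-1 and HSCP-2) and monocytic (MDP, cMoP and Mono). The log2 ratio of median CD117 between Gran-2 and Gran-1 was -0.061 ± 0.010 and that of Kit CPM was -0.41 ± 0.05 (mean ± SD of the libraries, n = 2). The difference between them, protein minus transcript, was 0.35 ± 0.06. It was 0.57 ± 0.04 with Kit counted per cell. Between Myelo and Gran, CD117 had a log2 ratio of -1.06 ± 0.31 and Kit CPM one of -0.94 ± 0.20. These CPM ratios lack the TMM normalisation of the edgeR test further on. With TMM on UMI counts summed per class, Kit changed by -0.43 in Myelo against Gran. On plain CPM, protein minus transcript was -0.12 ± 0.11 between Myelo and Gran. It was 0.63 ± 0.08 with Kit counted per cell, so the sign depended on the scale of the transcript. No test was made on the ratios of CD117 or of CPM, since 2 libraries allow no exact permutation p under 0.5.

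Between Gran and early, median CD117 was 295 and 170 in Gran, against 359.5 and 220 in early, a log2 ratio of -0.33 ± 0.06. Kit CPM was 34.9 and 31.0 in Gran, against 60.8 and 52.4 in early, a log2 ratio of -0.78 ± 0.03. With TMM on UMI counts summed per class, the Kit change was -0.49. Kit UMIs per cell were 0.947 and 0.674 in Gran, against 0.936 and 0.690 in early, a log2 ratio of -0.0081 ± 0.035. Protein minus transcript was 0.45 ± 0.09 on the CPM scale and -0.32 ± 0.03 per cell. Each library agreed in sign with the mean on both scales of that difference. Between monocytic and early, CD117 had a log2 ratio of -1.49 ± 0.12, which was the lowest of the 4 comparisons. Kit had -1.32 ± 0.02 on the CPM scale and -0.66 ± 0.07 per cell, and protein minus transcript was negative on both scales, at -0.17 ± 0.10 and -0.82 ± 0.05.

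The scale of the protein also set some signs. Taken as a share of the 4 antibody counts of a cell, CD117 minus Kit CPM was -1.33 in Gran against early and -1.75 in Gran-2 against Gran-1. Ly-6C, a surface protein of myeloid cells, made up a median of 88.9% and 89.5% of these counts in Gran-2, against 78.3% and 81.9% in Gran-1. Its median count was 13963 and 8689.5 in Gran-2, against 2761 and 2257 in Gran-1, so the share of CD117 was smaller at nearly the same CD117 count. Taken per RNA UMI of the cell, CD117 itself had a log2 ratio of 0.11 in Gran-2 against Gran-1, and CD117 minus Kit CPM was -0.32 in Gran against early and 0.82 in Myelo against Gran. With mean in place of median counts, that difference was 0.34 in Myelo against Gran.

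Kit and Flt3 were tested with edgeR's quasi-likelihood test on the UMI sums of the 34 combinations of cluster and library, with the library as a covariate and each cluster of a class weighted alike. Since both libraries are single and the number of mice is not known, these p-values measure the spread between cluster sums of 2 libraries, not between mice. In Gran-2 against Gran-1, Kit was lower with a log2 fold change of -0.31 ± 0.08 (SE, adjusted p = 0.00252), in a comparison in which 27.8% of 11627 genes passed the threshold of 0.05. The call was lost with cells thinned to 5000 UMIs (adjusted p = 0.217) and without the library term (adjusted p = 0.0681), while the size stayed at -0.29 and -0.31. Kit was lower in Myelo than in Gran, with a log2 fold change of -1.03 ± 0.22 (adjusted p = 5.90e-05), where 47.4% of genes passed. Without the 24 HSCP-1 and 59 Myelo-4 cells this was -0.34 ± 0.07 (adjusted p = 4.22e-05), and with UMI counts summed per class it was -0.43. With all clusters the female library alone gave -0.89 and the male -2.93, where male Myelo-4 had no Kit UMI. The median change of all genes in this comparison was -0.40 with all clusters.

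Kit between Gran and early did not pass with all clusters (log2 fold change -0.07 ± 0.24, adjusted p = 0.877, where 42.1% of genes passed). HSCP-1, with its 4 Kit UMIs, weighs as much there as the 1752 Multi-Lin cells. Without HSCP-1 and Myelo-4 the change was -0.82 ± 0.06 (adjusted p = 6.48e-17, 67.5% of genes passing). With sums per class, in which each cell counts by its UMI total, it was -0.49 ± 0.05 (adjusted p = 2.20e-07). The male library alone gave 0.22 with all clusters. Kit was lower in monocytic than in early cells, with a log2 fold change of -0.97 ± 0.32 with all clusters (adjusted p = 0.0144, 34.3% of genes passing) and of -1.72 ± 0.09 without HSCP-1 and Myelo-4 (adjusted p = 3.80e-21).

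Flt3 was lower in the Gran class and in the monocytic class than in the early class. In Gran against early clusters its log2 fold change was -5.41 ± 0.21, a fitted 42.4-fold difference (edgeR, adjusted p = 8.30e-29), and it was -4.56 without HSCP-1 and Myelo-4 and -4.32 with sums per class. In monocytic against early clusters the log2 fold change was -2.84 ± 0.18 (7.17-fold lower, adjusted p = 1.97e-19). It was -1.999 without HSCP-1 and Myelo-4 and -1.498 with sums per class. The remaining Flt3 of the monocytic class lay mostly in MDP, at 37.0 and 31.0 CPM, against 4.41 and 2.63 in Mono. MDP thus stood above Multi-Lin, an early cluster with 22.5 and 15.1 CPM. Flt3 between Gran-2 and Gran-1 did not pass (0.33 ± 0.41, adjusted p = 0.599). Flt3 between Myelo and Gran did not pass either (1.30 ± 0.68, adjusted p = 0.117), and it passed without HSCP-1 and Myelo-4 (1.20 ± 0.32, adjusted p = 0.00102), with sums per class (1.34, adjusted p = 0.000141) and with DESeq2 (1.497, adjusted p = 0.00426). Without the 5% of cells with most UMIs the value was -0.58 (adjusted p = 0.910). The libraries disagreed in this comparison: the female library alone gave -1.16 and the male 2.095. The levels involved were low, at 1.65 CPM in female and 5.20 CPM in male Myelo-3, from 7 and 27 UMIs.

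Within clusters, CD117 was compared between cells with and without a Kit UMI after every cell had been thinned to 5000 UMIs. In the 13 clusters with 10 or more cells on each side, cells with Kit had the higher median CD117 in both libraries in 9 and the lower in both in 1, Eryth. The median ratio over the clusters was 1.09 in female and 1.17 in male cells. In HSCP-2, CD117 was 390.5 and 299 in cells with Kit, against 355 and 255 in cells without. In Multi-Lin it was 379.5 and 245.5 with Kit, against 347.5 and 200 without. In Gran-1 it was 302.5 and 181 with Kit, against 298 and 172 without, a ratio near 1 in the largest cluster. In Gran-2 it was 313 and 178 with Kit, against 285 and 164 without. Myelo-1 had the largest ratio that was alike in both libraries, with 338.5 and 241.5 in cells with Kit, against 242 and 170 in cells without. In Eryth the values were 407 and 198 with Kit, against 462 and 238.5 without, from 11 cells with Kit in each library.

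For the other antibodies the cells with Kit were higher in both libraries in 3 (CD11b), 5 (Ly-6C) and 5 (Ly-6G) of the 13 clusters. Spearman's rho between Kit UMIs and CD117 over cells, as the median of 12 clusters, was 0.0459 and 0.103. It was 0.0869 and 0.139 with 10000 UMIs per cell and 0.180 and 0.208 without thinning. A cell with 5000 UMIs rarely holds more than 1 Kit UMI, so the relation of single cells is read through strong counting noise. With 10000 UMIs per cell, Multi-Lin cells with 0, with 1 and with 2 or more Kit UMIs had median CD117 counts of 355, 369 and 461 in the female and 219.5, 237 and 257 in the male library. The same steps in Gran-1 were 297, 300 and 314 in the female and 176, 171.5 and 166 in the male library, with no common direction.

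**Figure D4:**
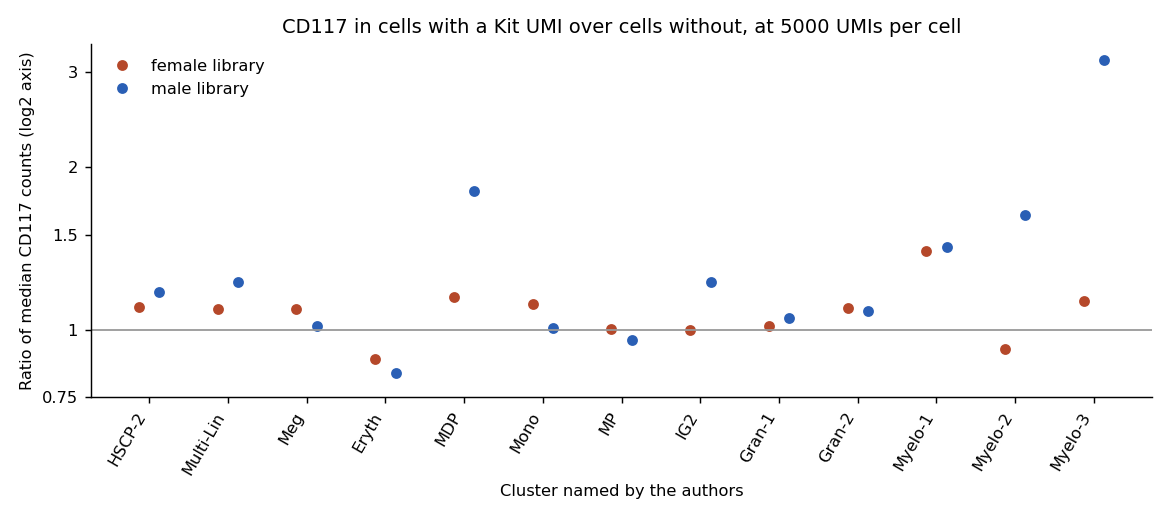
Median CD117 count of cells with a Kit UMI over that of cells without, at 5000 UMIs per cell, for the 13 clusters with 10 or more cells on each side in both libraries. In 9 clusters both points lie above 1, in Eryth both lie below, and Myelo-3 lies at 1.13 in female and 3.17 in male cells.

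The libraries parted most in Myelo-3, where the ratio was 1.13 in female and 3.17 in male cells. Cells of that cluster were split into terciles of CD117 within each library. In the male library the upper tercile had a median CD117 of 300.5, against 74 and 44 in the middle and lower terciles. A Kit UMI was found in 24 of its 162 cells (14.8%), against 4.29% and 4.91% in the other terciles. A Flt3 UMI was found in 12 of its cells (7.41%), against 0.613% and 0%. Stem and early progenitor markers stood at 458 summed CPM in that tercile, against 38.0 and 29.4 CPM, and later neutrophil genes at 96272 CPM, against 140221 and 145958 CPM. Its cells had a median of 12597 UMIs, against 9114 and 6786. In the female library the upper tercile had Kit in 6.43% and Flt3 in 0% of 140 cells, with stem markers at 95.7 CPM. In male Myelo-3 the cells with a Kit or a Flt3 UMI thus lay mostly in the upper CD117 tercile. That tercile as a whole held more progenitor transcripts, fewer later neutrophil transcripts and more UMIs. The marker sums pool its cells and were not split by Kit or Flt3. Without the shared barcodes, Kit was found in 14.8% and Flt3 in 7.41% of the upper male tercile. The part of these cells in the Kit and Flt3 levels of Myelo-3 was not tested.

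Cells with and without Flt3 were compared in the clusters that hold most of it. In Multi-Lin at 5000 UMIs, 58 female and 72 male cells had a Flt3 UMI. Their lymphoid markers stood at 44.8 and 52.8 summed CPM, against 6.73 and 3.88 CPM in cells without. Their markers of basophils, mast cells and eosinophils stood at 417 and 492 CPM, against 3197 and 4558 CPM in cells without. Stem markers were 1379 and 1283 CPM with Flt3, against 962 and 992 without, and primary granule genes were 7245 and 7692 CPM, against 9698 and 10433. Monocytic markers were 221 and 197 CPM with Flt3, against 174 and 158 without. Dendritic markers went the other way, with 41.4 and 38.9 CPM, against 46.8 and 56.8 without. The lymphoid values rest on 13 and 19 UMIs in the cells with Flt3. Depth was alike (median 17457.5 and 13917.5 UMIs with Flt3, against 17158 and 13845 without). Over whole clusters the basophil, mast cell and eosinophil markers stood at 2387 and 3155 CPM in Multi-Lin. They were 142 and 199 CPM in HSCP-2 and 391 and 340 CPM in Gran-1. Multi-Lin cells with Flt3 were thus low in these genes only against Multi-Lin cells without it. The sums pool cells and do not show how the markers were spread over them.

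**Figure D5:**
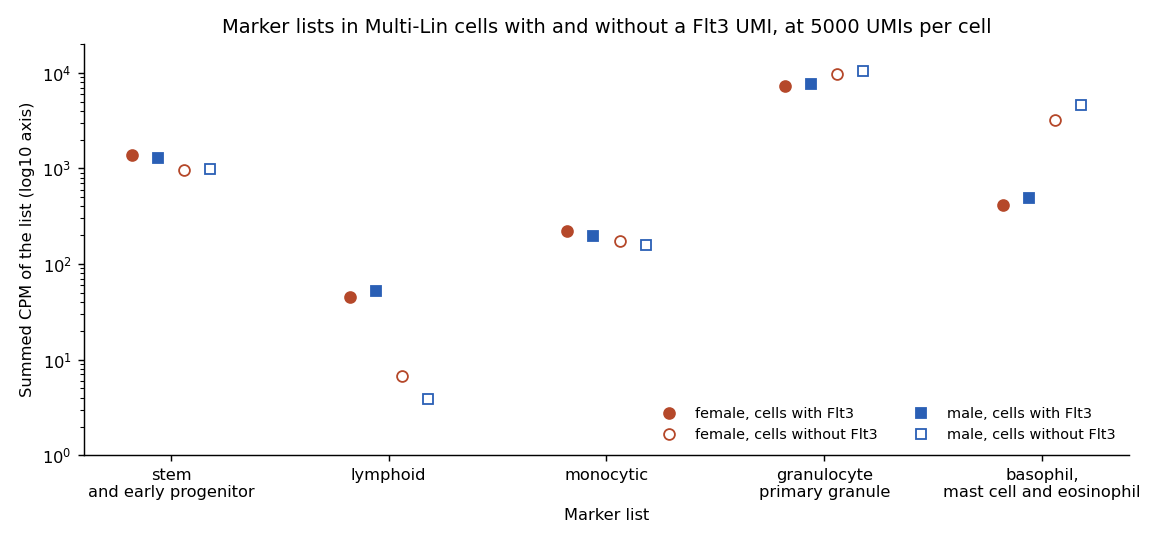
Summed CPM of 5 marker lists in Multi-Lin cells with a Flt3 UMI (filled) and without (open), at 5000 UMIs per cell, in the female (circles) and the male library (squares). Lymphoid markers lie higher and basophil, mast cell and eosinophil markers lower in the cells with Flt3 in both libraries.

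CD117 ran with Flt3 in Multi-Lin and against it in HSCP-2. Multi-Lin cells with Flt3 had median CD117 counts of 412.5 and 271, against 345 and 202 in cells without. HSCP-2 cells with Flt3 had 330 and 223.5, against 400.5 and 275.5 in cells without. Without the shared barcodes these were 411 and 271, against 344 and 201.5, in Multi-Lin, and 330 and 223, against 401 and 275.5, in HSCP-2. With 10000 UMIs per cell the HSCP-2 values were 349.5 and 405 with Flt3, against 489 and 385.5 without, so the male library turned round at that depth, from 27 and 34 cells. A Kit UMI was found in 34.5% and 35.1% of HSCP-2 cells with Flt3, against 31.8% and 34.9% of those without. In Multi-Lin these shares were 29.3% and 13.9% with Flt3, against 27.1% and 20.4% without. The intervals of all these Kit shares overlapped. Read the other way, Flt3 was found in 11.9% and 10.6% of Multi-Lin cells in the upper CD117 tercile, against 4.82% and 2.28% in the lower, whose cells were shallower (14966.5 and 11087 UMIs, against 18387 and 15279.5 in the upper).

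The genes of the pathway came from 6 lists with 80 genes, Kit and Flt3 among them, of which 76 could be tested. In Gran against early, 16 rose and 29 fell, in Gran-2 against Gran-1 19 rose and 13 fell, in Myelo against Gran 34 rose and 9 fell, and in monocytic against early 15 rose and 28 fell. Over all genes the shares that rose and fell were 25.7% and 16.4%, 15.5% and 12.3%, 17.2% and 30.3%, and 21.7% and 12.6% in the same order of comparisons. Median log2 changes of the 76 genes were -0.31, 0.0085, 0.43 and -0.31, against 0.15, -0.0097, -0.40 and 0.14 over all genes. Without HSCP-1 and Myelo-4 the pathway counts were 19 and 44, 19 and 13, 49 and 8, and 16 and 38, where 32.6% and 34.9%, 16.1% and 12.4%, 32.9% and 33.4%, and 26.7% and 27.8% of all genes rose and fell. Of the first calls, 1 was lost and none changed direction. In Gran-2 against Gran-1 the pathway genes called numbered 32 in the main fit, 14 with cells thinned to 5000 UMIs and 18 without the library term. Calls over all genes fell as well, from 3229 in the main fit to 1425 and 1571.

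Kitl and Il34 were almost absent from these cells. Kitl, the gene of stem cell factor, had 2 UMIs in male Multi-Lin and 1 in male Myelo-1 and 0 in every other cluster sum, and Il34 had 0 throughout. The gene of the FLT3 ligand was not analysed here. Csf1, which encodes macrophage colony-stimulating factor, was highest in Multi-Lin at 9.31 and 6.78 CPM apart from male DC, whose 16.6 CPM rest on 3 UMIs. It rose in Myelo against Gran by 1.59 ± 0.68 (edgeR, adjusted p = 0.0475). Among the related receptors, Csf1r, the receptor of that factor, had 98.9 and 69.7 CPM in cMoP, 53.7 and 46.9 in Mono and 51.7 and 47.8 in MDP. Csf1r was higher in monocytic than in early clusters by 6.91 ± 0.31 on the log2 scale, and by 4.61 ± 0.15 without HSCP-1 and Myelo-4, and HSCP-1 had 0 Csf1r UMIs in both libraries. Pdgfrb, a receptor of platelet-derived growth factor, had 1.40 and 1.55 CPM in Gran-1 and 15.4 and 20.6 CPM in HSCP-2, and in Gran against early it fell by 3.86 ± 0.57 on the log2 scale (adjusted p = 1.26e-07). Pdgfra had 0 UMIs.

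The list of reported regulators of Kit or Flt3 had 5 of 20 genes higher and 13 lower in Gran against early, where 25.7% of all genes rose and 16.4% fell. Meis1, a homeobox factor of stem cells, had 4.24 and 4.75 CPM in Gran-1, against 124 and 154 in HSCP-2 and 41.2 and 41.9 in Multi-Lin, and fell by 4.87 ± 0.31 (adjusted p = 3.84e-20). Hoxa10, another homeobox gene, had 0.552 and 0.143 CPM in Gran-1, against 14.1 and 16.4 CPM in HSCP-2, and fell by 6.30 ± 0.93 (adjusted p = 1.25e-07). Gran-2 held no Hoxa10 UMI, so that size is no bound. Gata2, which binds Kit enhancers in mast cells and progenitors, had 4.71 and 6.30 CPM in Gran-1, against 185 and 156 CPM in HSCP-2. Its change between Gran and early was -3.77 (adjusted p = 1.37e-05), and -4.86 without HSCP-1 and Myelo-4. Spi1, the gene of the ETS factor PU.1, rose by 0.97 ± 0.07 and Cebpa, a factor of granulocyte commitment, by 0.75 ± 0.12. In Myelo against Gran, Cebpa fell by 2.08 ± 0.13 (adjusted p = 8.76e-20) and Myb by 1.47 ± 0.08. Meis1 rose in that comparison (1.62 ± 0.60, adjusted p = 0.0233), where male Myelo-3 stood at 18.5 CPM and female Myelo-3 at 3.29.

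Genes that dampen receptor signals moved in both directions. In Gran against early, 4 of 23 rose and 9 fell, where 25.7% of all genes rose and 16.4% fell. Sla, an adaptor that promotes receptor turnover, rose by 1.44 ± 0.19 and Rasa2, a RAS GTPase-activating protein, by 1.90 ± 0.28, while Socs2, a cytokine-induced inhibitor, fell by 4.87 ± 0.94. In Myelo against Gran, 11 of 23 rose and 1 fell, where 17.2% of all genes rose and 30.3% fell. Dok2, a docking protein that restrains RAS, rose by 2.17 ± 0.27 and the phosphatase gene Ptprj by 1.93 ± 0.27. Spry2, an inhibitor of RAS signals, fell by 2.85 ± 0.72 and, without HSCP-1 and Myelo-4, fell by 0.99. Of the 24 adaptors and kinases, 14 rose and 0 fell in Myelo against Gran, beside the same shares of all genes. Lyn, a Src family kinase, rose by 1.38 ± 0.12 and Pik3r5, a PI3 kinase subunit, by 1.53 ± 0.35. In Gran against early, 6 of the 24 rose and 4 fell, close to the 25.7% and 16.4% of all genes. Shc1 stood there at 1.01 ± 0.19 and Fyn at -3.77 ± 0.58. Of the STAT factors, Stat5b fell in Gran against early by 0.92 ± 0.27, and Stat3 rose in Myelo against Gran by 0.72 ± 0.17. All these are edgeR changes on the log2 scale with adjusted p under 0.05.

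The genes whose pattern over the 17 clusters was most like Kit, among 4420 with a mean of 20 CPM or more, were Ube2g1 (mean Pearson r of the libraries 0.889), Patz1 (0.878), Hdgfl2 (0.863), Strbp (0.860) and Fam53a (0.851). Most like Flt3 were Wfdc17 (0.922), Il10rb (0.867), Ifi203 (0.837), Dntt (0.829) and Cdc42se2 (0.823). Values of log2(CPM + 1) were used, and these are descriptions over 17 clusters that share 2 libraries. Dntt, the gene of terminal deoxynucleotidyl transferase, is also 1 of the lymphoid markers given above for HSCP-1, the cluster of 24 cells in which Flt3 stood highest.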

How the data were processed

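Per the labels' protocols, CD117-enriched and sorted marrow was stained with tagged antibodies and run on the 10x Genomics 3' v2 assay, with 10000 cells loaded per sample. Cell Ranger 2.1.0 and mm10 are listed in the submitters' processing notes. How cells were clustered, whether doublets were removed and which gene annotation was used were not given in the sources used here. Deposited tables hold unnormalised UMI counts (11132 cells, 28692 gene IDs), whole-number counts of 4 antibodies and a cluster name per cell. Whether duplicate antibody reads were collapsed is not stated. Name endings of the cells gave their library.

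No further cell filter and no doublet caller were applied, and the lowest cell held 4373 UMIs. Kit, Flt3, the gene and marker lists and the classes were chosen with earlier results of these data known, and the clusters are the authors' and may rest on the same RNA that is tested here. Genes shown follow a rule: Kit and Flt3, all ligands and class III receptors, up to 2 genes of each other list with the largest change in each direction, and the 5 genes most like each receptor. The text names part of these and also Gata2, which was added after its values were seen.

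UMI counts were summed per cluster and library and tested by edgeR 4.0.16 (R 4.3.3) with its quasi-likelihood test (TMM, filterByExpr, library as covariate, 34 sums, 16 residual degrees of freedom, 11627 genes), with Benjamini-Hochberg values over all genes and a threshold of 0.05. The procedure was run on simulated data, in which far fewer genes changed than were called here. That run does not measure its errors in these comparisons. Standard errors (SE) were derived from the log2 fold change and F. Female and male numbers name libraries of different animals and pair nothing beyond the library. CD117 was summarised as a median per class and library. Depth was equalised by drawing 5000 or 10000 UMIs per cell, leaving out shallower cells. Intervals (95%, Poisson or Clopper-Pearson) cover counting error only, and the limit given for a count of 0 is 3 counts of the total. Alternatives used other scalings, filters, weights and cell sets, and DESeq2 1.42.0. The alternatives without HSCP-1 and Myelo-4, and with Kit UMIs per cell, and the cluster levels, terciles and cells with Flt3 without shared barcodes, were chosen after seeing the data. Tables and plots were made in Python 3.11.15 with pandas 2.3.3, scipy 1.17.1, numpy 2.4.6 and matplotlib 3.10.9. Promoter sequences are RefSeq's on GRCm38.p6, matched by symbol for both genes.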

Additional observations from a re-analysis of the deposited data

Results flagged for a closer look

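In 4 results the female and the male library moved in opposite directions. The difference between the libraries was not tested in any of them, since each sex is 1 library. The log2 ratio of Kit UMIs per cell between Gran and early was 0.0164 in female and -0.0327 in male cells, both close to 0. The fitted log2 fold change of Kit between Gran and early was -0.23 in female and 0.22 in male cells, with HSCP-1 weighted as much as the larger clusters. The fitted log2 fold change of Flt3 between Gran-2 and Gran-1 was 0.83 in female and -0.25 in male cells, at levels of 0.782 to 1.85 CPM in these clusters. The fitted log2 fold change of Flt3 between Myelo and Gran was -1.16 in female and 2.095 in male cells. Male Myelo-4 had 1 Flt3 UMI and female Myelo-4 had 0, and male Myelo-3 had 27, against 7 in female Myelo-3.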

How the results depend on the processing

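Of 242 alternative values for 26 results, 193 were counted as unchanged. For Kit and Flt3 this meant the same direction and the same side of the threshold, or a value within the spread. For counts it meant a change of at most 1.5-fold. For CD117, protein minus transcript and rho, the value of a single library always lies within the SD of the 2 libraries. Only a change of sign could be counted there. The cause of the changed values was not tested. Without the replicate block (no library term), Kit in Gran-2 against Gran-1 was -0.31 (adjusted p = 0.0681), with 1571 genes and 18 pathway genes called, and the block changed no other call on Kit or Flt3. The labels number nothing that pairs the libraries. Thinned to 5000 UMIs per cell, that Kit change was -0.29, with 1425 genes and 14 pathway genes called. Without HSCP-1 and Myelo-4, Kit in Gran against early was -0.82 and Flt3 in Myelo against Gran 1.20, and 7842 (Gran against early) and 6337 (monocytic against early) genes were called. With sums per class, these were -0.49, 1.34, 8039 and 6895. DESeq2 gave 1.497 for Flt3 in Myelo against Gran, and leaving out the 5% of cells with most UMIs gave -0.58. Single libraries ranged from -0.23 to 0.22 (Kit, Gran against early), -0.25 to 0.83 (Flt3, Gran-2 against Gran-1), -1.16 to 2.095 (Flt3, Myelo against Gran), -2.93 to -0.89 (Kit, Myelo against Gran) and -1.07 to -0.72 (Kit, monocytic against early). For CD117 in Gran against early, Gran-2 against Gran-1, Myelo against Gran and monocytic against early, the log2 ratio was -2.104, -2.16, -2.95 and -4.03 as a share of the 4 antibody counts, in which Ly-6C and the others also differ, and -1.10, 0.11, -0.12 and -2.105 per RNA UMI. Protein minus transcript in the same order was -1.33, -1.75, -2.01 and -2.71 as a share, -0.32, 0.52, 0.82 and -0.79 per RNA UMI, and -0.32, 0.57, 0.63 and -0.82 with Kit UMIs per cell. With mean counts, CD117 was -0.11 in Gran-2 against Gran-1 and -0.60 in Myelo against Gran, and protein minus transcript was 0.34 in Myelo against Gran and -0.056 in monocytic against early. With the Myelo-4 median taken off, CD117 was -0.074 in Gran-2 against Gran-1 and -1.94 in monocytic against early, where protein minus transcript was -0.62. Without thinning, the median rho of Kit with CD117 was 0.194. Depth limits Kit in HSCP-1, DC and Myelo-4 and Flt3 in Meg, Eryth, cMoP and Myelo-4, with at most 6 UMIs of the gene in each library.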
